A study of Mus musculus with 30 samples.

Results

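The miR-23, miR-27 and miR-24 precursors lie side by side in 2 clusters of the mouse genome, the 23a cluster (Mir23a, Mir27a and Mir24-2) and the 23b cluster (Mir23b, Mir27b and Mir24-1). The 6 precursors were taken by their symbols from tables of 2194 named features in each of 5 organs, and all 6 were found in every table. Of these, 4 were abundant in every organ, Mir24-2 was close to 0, and Mir24-1 was listed at 0 throughout. The organs differed in how much of the pair of clusters came from the 23a side, with spleen and heart highest, whereas no member passed the test between the genotypes in any organ.

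A microRNA cluster is transcribed as 1 primary RNA, from which Drosha cuts the hairpins and Dicer the mature strands, and a mature strand guides Argonaute to messenger RNAs through its seed. The 23a and 23b clusters are paralogues and give mature strands that are identical or nearly so. As background, miR-23 and miR-27 are known for their part in endothelial cells and vessel growth, miR-27 also for its part in lipid metabolism, and miR-24 for its part in heart muscle and the cell cycle.

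The groups were Ftsj1_DF mice, deficient in the tRNA methyltransferase gene Ftsj1, and WT mice. All were males aged 4 months, with 3 mice per genotype, and brain, heart, kidney, liver and spleen came from the same 6 mice, which gave 30 libraries. The mice came from 2 sets of brothers, each of which held both genotypes, and no treatment was given. The strain and the allele are not described in the sources used here. Heart, kidney and liver each held 1 WT library of a second batch, and brain and spleen held none.

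The tables give a mean and a fold change per feature and no value per library, and they do not name the genotype in the numerator. A positive fold change is therefore described as higher on the positive side, the 3 libraries of the genotype in the numerator, and a negative one as higher on the negative side. A comparison of signs between organs assumes the same numerator in each. The means are counts divided by size factors, and their sum over features was 8511372 in heart, 10737328 in spleen, 16119031 in brain, 18941389 in liver and 21787131 in kidney. Relative depths, recovered as size factors, overlapped between the sides in 4 organs. In liver they did not, since the positive side had 0.4999 to 0.729 and the other side 1.45 to 2.15. Organ labels were checked against marker microRNAs. Mir122 held 26.2% of the liver total and at most 0.0588% elsewhere, and Mir9-2 held 6.16% in brain, Mir1a-1 7.45% in heart, Mir10a 6.38% in kidney and Mir150 1.09% in spleen. The Ftsj1 messenger RNA is not counted in small RNA tables, and genotype could not be checked from them.

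The sequences show how alike the 2 clusters are, which bears on how far their reads can be told apart. All sequences are from RefSeq (GRCm38.p6), where all 6 members matched by symbol. In the mature strands below, capitals mark the seed, bases 2 to 8.
mmu-miR-23a-3p: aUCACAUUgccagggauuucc
mmu-miR-27a-3p: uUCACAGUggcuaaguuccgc
mmu-miR-27b-3p: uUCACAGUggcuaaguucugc
mmu-miR-24-3p: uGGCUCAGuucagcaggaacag
The 2 miR-27 strands share the seed UCACAGU. The seed GGCUCAG of miR-24-3p occurred in 5 of the 1679 mature strands of the RefSeq table.

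The hairpins follow, with the best match of the 3p strand in capitals, that of miR-23a-3p in Mir23a and Mir23b, of miR-27a-3p in Mir27a and Mir27b, and of miR-24-3p in both Mir24 hairpins.
Mir23a: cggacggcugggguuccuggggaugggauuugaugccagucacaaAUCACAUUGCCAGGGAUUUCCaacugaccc
Mir23b: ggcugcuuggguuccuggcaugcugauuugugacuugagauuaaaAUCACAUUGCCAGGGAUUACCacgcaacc
Mir27a: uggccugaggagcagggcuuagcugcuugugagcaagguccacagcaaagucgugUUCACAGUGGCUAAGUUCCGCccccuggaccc
Mir27b: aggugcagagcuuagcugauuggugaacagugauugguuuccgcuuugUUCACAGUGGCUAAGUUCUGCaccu
Mir24-2: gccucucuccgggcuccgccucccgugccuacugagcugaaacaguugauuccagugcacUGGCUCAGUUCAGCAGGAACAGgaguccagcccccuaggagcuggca
Mir24-1: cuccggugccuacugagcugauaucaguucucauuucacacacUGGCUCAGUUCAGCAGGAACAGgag
Counted from 1 at the 5′ end of the mature strand, miR-23a-3p differed from the Mir23b hairpin by U19A alone, and miR-27a-3p differed from the Mir27b hairpin by C19U alone. The matched stretch of the Mir23b hairpin thus holds the seed UCACAUU of miR-23a-3p. A read of the first 18 bases of either strand therefore fits both clusters. The miR-24-3p strand was identical in Mir24-1 and Mir24-2, so its reads cannot be told apart at any length within the strand. How the authors' counting treated reads with several matches is not given in the sources used here, and the values of paralogues are uncertain to that extent.

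On GRCm38.p6 the 23a cluster lies on the plus strand of chromosome 8, with Mir23a at chr8:84208518-84208592, Mir27a at chr8:84208672-84208758 and Mir24-2 at chr8:84208815-84208921. It spans 404 bases, with gaps of 79 and 56 bases between its hairpins, and overlaps no protein-coding gene of the GENCODE M21 annotation. The last member, Mir24-2, shares 2 bases with the lincRNA Gm26532. The 23b cluster lies on the plus strand of chromosome 13, with Mir23b at chr13:63300484-63300557, Mir27b at chr13:63300712-63300784 and Mir24-1 at chr13:63301208-63301275. It spans 792 bases, with gaps of 154 and 423 bases, inside the protein-coding gene 2010111I01Rik on the same strand and opposite an intron of Fancc, a Fanconi anaemia gene. Mir23b lay in introns of the 9 transcripts of 2010111I01Rik over it, whereas an exon covered Mir27b in 1 of 9 transcripts and Mir24-1 in 4 of 11. The counts were made on GRCm39, so these positions identify the precursors and were not used to count.

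In the 23a cluster, Mir23a was the major member in every organ. It held 1.74% of all normalized counts in heart, 0.692% in spleen, 0.479% in kidney, 0.339% in brain and 0.243% in liver, a 7.15-fold range, and ranked 13 among the features of heart and 60 among those of brain. Each step in that order was larger than 1.96 combined standard errors of the levels. Mir27a was lower than Mir23a everywhere, at 0.481% in heart, 0.290% in spleen, 0.208% in kidney, 0.103% in liver and 0.0596% in brain. Its 8.08-fold range was the widest of the 4 abundant members, and again each step exceeded 1.96 combined standard errors with organs taken as independent. The ratio of Mir27a to Mir23a was 0.176 in brain, 0.277 in heart and between 0.419 and 0.434 in kidney, liver and spleen. Levels are compared per read and were not divided by the length of the precursor, since small RNA reads come from short mature strands. The lengths of the reads, and how evenly strands of different sequence were captured, were not tested.

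In the 23b cluster the order of the 2 members was the other way round, and Mir27b exceeded Mir23b in every organ. Mir27b held 1.72% in heart, 1.42% in kidney, 0.803% in spleen, 0.770% in brain and 0.713% in liver. Heart and kidney lay within 1.96 combined standard errors of each other, and so did spleen and brain, and brain and liver, so that only the step from kidney to spleen exceeded them. Mir23b held 1.07% in heart, 0.621% in kidney, 0.460% in brain, 0.314% in spleen and 0.284% in liver, of which spleen and liver lay within those errors. The range was 2.41-fold for Mir27b and 3.76-fold for Mir23b, narrower than for either abundant member of the 23a cluster. The ratio of Mir27b to Mir23b was 1.68 in brain and 1.61 in heart, and 2.28 in kidney, 2.51 in liver and 2.55 in spleen.

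**Figure D1:**
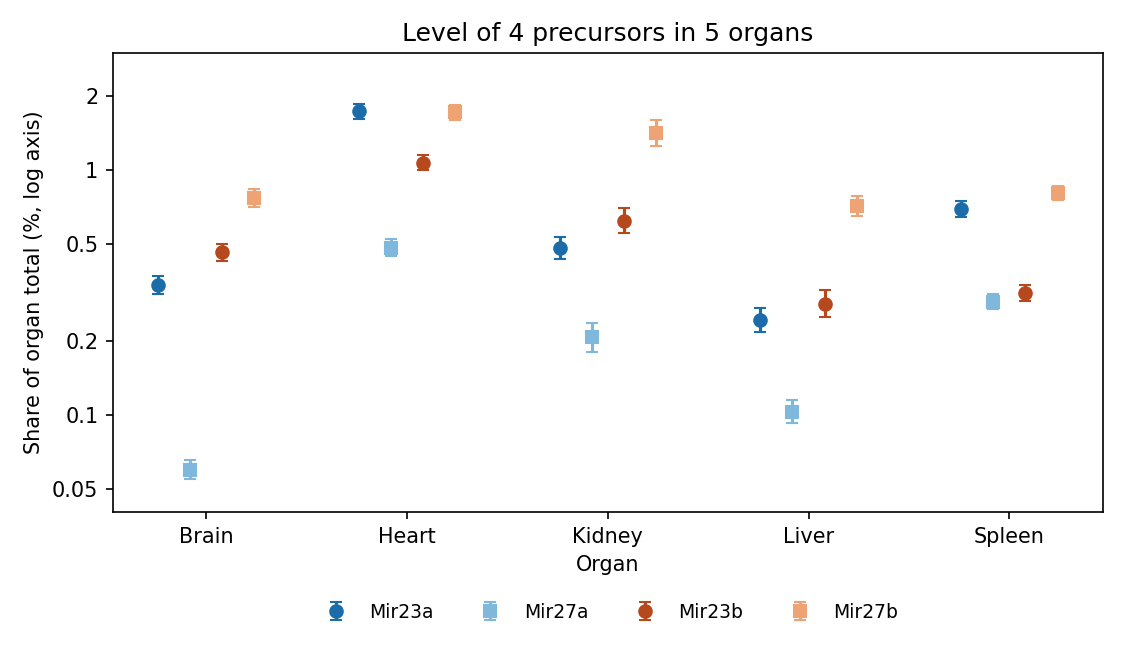
Share of the organ's total normalized counts held by Mir23a, Mir27a, Mir23b and Mir27b (log axis, %) in 5 organs of 6 libraries each, as the mean with bars of 1 standard error on the log2 scale. Heart is highest for all 4 members, and Mir27a spans the widest range, from 0.0596% in brain to 0.481% in heart.

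These shares depend on what else an organ expresses, since the tables were normalized separately and were not tested against each other. With the 10 most abundant features left out of each total, heart kept the first place for Mir23a, Mir27a and Mir23b, kidney took it for Mir27b, and brain was last for all 4. In bulk tissue, fewer cells of a type and less RNA per cell cannot be told apart. Together the 2 clusters held 5.00% of normalized counts in heart, 2.73% in kidney, 2.10% in spleen, 1.63% in brain and 1.34% in liver. These sums are in effect those of the 4 abundant members, since Mir24-1 was listed at 0 and Mir24-2 was close to 0.

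A ratio of paralogues within a table does not depend on the total, and it varied between organs. In spleen Mir23a was 2.20 times Mir23b (95% interval 1.77 to 2.74, 6 libraries), and in heart 1.63 times (1.33 to 1.98). In brain the order was reversed at 0.737 (0.591 to 0.919). The intervals of kidney, 0.771 (0.568 to 1.05), and liver, 0.855 (0.612 to 1.20), included equal levels. The miR-23 ratio was thus 2.99-fold higher in spleen than in brain, a log2 difference of 1.58 with a standard error of 0.23.

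The miR-27 pair showed the same 2 organs on top, although Mir27a was the lower paralogue in every organ. Mir27a was 0.361 times Mir27b in spleen (0.297 to 0.439) and 0.281 times in heart (0.227 to 0.347). The ratio was 0.146 in kidney (0.103 to 0.209), 0.145 in liver (0.108 to 0.193) and 0.0774 in brain (0.0609 to 0.0983). Spleen exceeded brain 4.66-fold, a log2 difference of 2.22 with a standard error of 0.23. Among neighbours in order, the steps from heart to kidney and from liver to brain exceeded 1.96 combined standard errors, and those from spleen to heart and from kidney to liver did not. For the miR-23 pair, the steps from spleen to heart and from heart to liver exceeded them, and liver, kidney and brain did not differ beyond them. All ratio intervals treat the 2 features of a library as independent and cover the spread between libraries within a genotype. The steps of level and ratio also treat the organs as independent, although they come from the same mice. The order of spleen and heart rests on this in both pairs: with a correlation of -0.5 between organs the lower bound of the miR-23 step fell from 0.01 to -0.08 on the log2 scale, and with one of 0.5 that of the miR-27 step rose from -0.05 to 0.07.

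**Figure D2:**
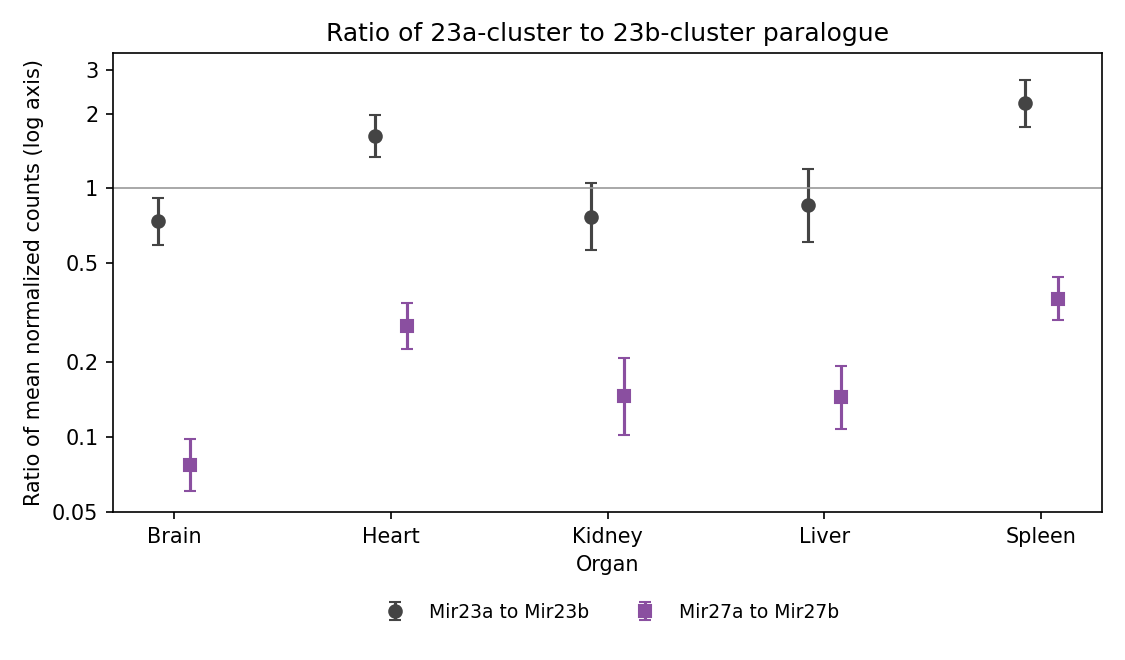
Ratio of mean normalized counts of Mir23a to Mir23b and of Mir27a to Mir27b (log axis) in 5 organs of 6 libraries each, with 95% intervals. Both ratios are highest in spleen (2.20 and 0.361), followed by heart, and lowest in brain (0.737 and 0.0774), and the grey line marks equal levels.

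Summed over members, in effect miR-23 and miR-27 alone, the 23a cluster held 0.982% and the 23b cluster 1.12% in spleen, a ratio of 0.879. In heart the ratio was 0.797. In brain, kidney and liver the 23a cluster was 0.324, 0.337 and 0.347 times the 23b cluster. The vascular microRNAs were set beside these levels as markers of another cell type. Mir126a, an endothelial microRNA, held 5.31% in heart, 2.79% in kidney, 1.80% in liver, 1.40% in spleen and 0.656% in brain. Mir143, a smooth muscle microRNA, held 25.4% in spleen, 21.1% in kidney, 19.1% in heart, 5.62% in liver and 3.22% in brain. Mir126b of the same list was at 0 in all 5 organs. It lies wholly inside Mir126a on the other strand, a position taken up below, so its 0 is not read as a marker level. The part of vessel content in the members' levels was not tested.

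Among 103 features with a mean of at least 1000 normalized counts in every organ, those with the profile most like each member's were found by Pearson's r of log2 share over the 5 organs, which share their totals and normalization. Mir27a was nearest to the smooth muscle microRNA Mir145a (r = 0.99), then to Mir30b (0.99) and Mir6236 (0.97), and its neighbour Mir23a came in place 8 with 0.88. Mir145a held 0.453% in heart, 0.353% in spleen, 0.201% in kidney, 0.0675% in liver and 0.0465% in brain, which is the organ order of Mir27a. Mir30b had that order too, from 0.341% in heart to 0.116% in brain. Mir23a was nearest to Mir30b (0.94), the provisionally named small RNA Gm54610 (0.88) and Mir27a (0.88). In the other cluster, Mir23b was nearest to Mir30d (0.96), Mir27b (0.93) and Mir30c-2 (0.84), and Mir27b to Mir30c-1 (0.93), Mir23b (0.93) and Mir30c-2 (0.91). The abundant members of 1 cluster thus had a higher r with each other than with their paralogues, at 0.76 for Mir23a with Mir23b and 0.72 for Mir27a with Mir27b. Mir23a also had an r of 0.76 with Mir27b, which is not its paralogue. Each r rests on 5 organs and has no interval, and differences between r values were not tested. The nearest features are the highest of many, so a high r is in part a result of that choice.

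The miR-24 precursors stood apart from their neighbours, although they lie in the same 2 clusters. Mir24-2 had 64 reads in all 30 libraries together, and at most 0.0142% of the mean of Mir27a, the hairpin next to it. Whole reads per library, recovered from the deposited means, were 5, 4 and 1 on the positive side in heart and 9, 4 and 3 on the negative side. Spleen had 2, 2 and 2 reads against 9, 6 and 0, and kidney had 6, 1 and 1 against 3, 1 and 0. Brain had 3 reads in 1 library of the positive side, and liver had 1 read in each of 2 libraries of the negative side. Reads of the sides, not divided by size factors, overlapped in heart, kidney and spleen. In brain and liver they overlapped at 0 only, and the 2 reads of liver could not have filled the 3 libraries of a side. The overlap there says nothing about the genotypes.

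Mir24-1 was listed at 0 in all 5 organs. For an organ, 0 reads allows up to 3 reads over its 6 libraries, or a mean of at most 0.685 normalized counts in brain and 1.00 in liver, the lowest and highest of these limits, for counting error only. The 3p strand of miR-24 is identical in the 2 hairpins. The same holds for the members of 15 other sets of precursors with identical mature copies, and in 13 of those sets at least 2 copies had a mean above 10 in some organ. In the miR-24 set no copy did.

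Both miR-24 hairpins overlap a miR-3074 hairpin on the other strand, which RefSeq places as follows. Mir24-1, of 68 bases, lies wholly inside Mir3074-1, of 85 bases, which extends 9 and 8 bases beyond it. Mir24-2, of 107 bases, is the outer one of its pair, and Mir3074-2, of 83 bases, lies inside it with 10 and 14 bases to spare. Both mature arms of Mir24-2 fall within the bases that Mir3074-2 covers.
mmu-miR-3074-5p: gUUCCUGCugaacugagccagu
The strand above, shown with its seed in capitals, comes from bases that overlap those of miR-24-3p, on the other strand, in both pairs. Mir3074-1 had a mean of 249.9 normalized counts in kidney, 191 in heart, 138 in liver, 128 in spleen and 91.0 in brain in the authors' deposited table, and Mir3074-2 was at 0 in all 5 organs. Whether the counting used the strand is not given in the sources used here, so reads of Mir3074-1 and Mir24-1 cannot be told apart.

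**Figure D3:**
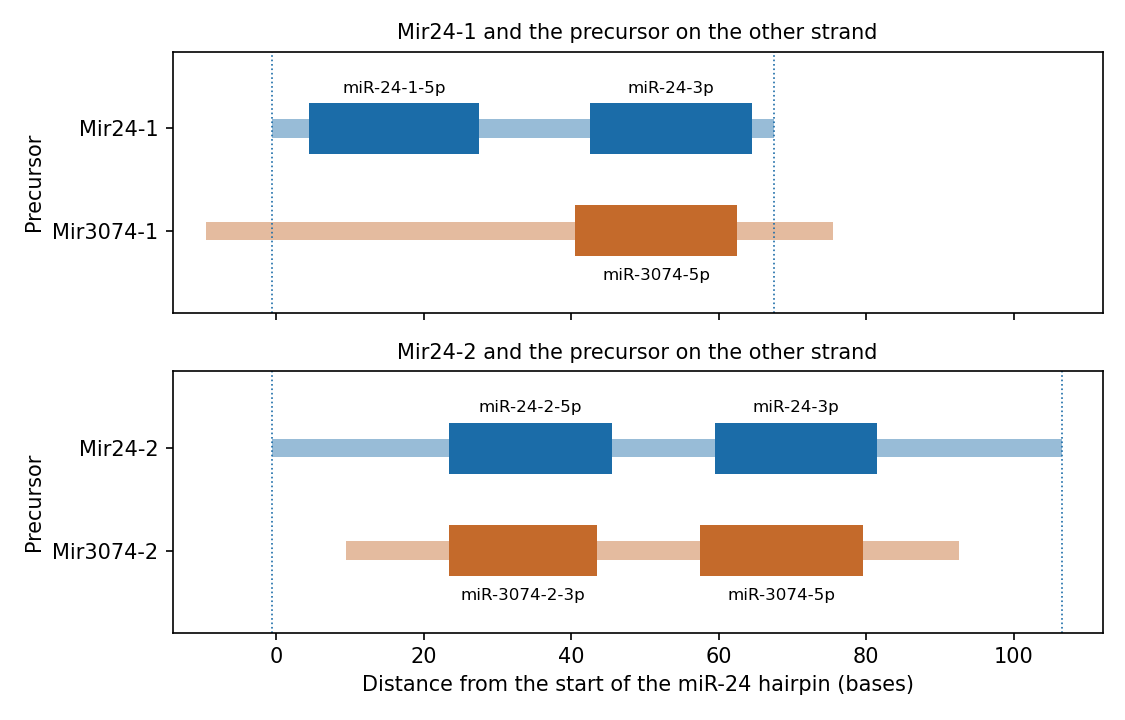
Map of the 2 miR-24 hairpins (blue) and the miR-3074 hairpins on the other strand (orange), in bases from the start of the miR-24 hairpin on RefSeq GRCm38.p6. Thin bars are hairpins, thick bars are annotated mature arms, and dotted lines mark the ends of the miR-24 hairpin: Mir24-1 lies inside Mir3074-1, and Mir3074-2 inside Mir24-2.

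The same position was then looked up for every precursor in both tables, a comparison chosen after the values of Mir24-1 were seen. Of 21 precursors that lie wholly inside a precursor on the other strand, 21 were at 0 in all 5 organs. These included Mir24-1, Mir3074-2, the red cell microRNA Mir451a and the leukocyte microRNA Mir142. Of 23 that overlap such a partner but extend beyond it, 2 were at 0 in all organs, and of 915 with no overlap on the other strand, 82 were (8.96%). Of the 23 that extend beyond, the 10 whose arms all lie within the partner's bases, Mir24-2 among them, had a median highest organ mean of 14.4 normalized counts. The other 13 had a median of 82.4. Both sets spread widely and overlapped, from 3.34 (Mir216b) to 61491 (Mir219a-2) in the 10 and from 0 (Mir9-1) to 993436 (Mir9-2) in the 13. What the counting did with such reads was not tested, and the values at or near 0 for miR-24 give no level of the mature RNA.

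**Figure D4:**
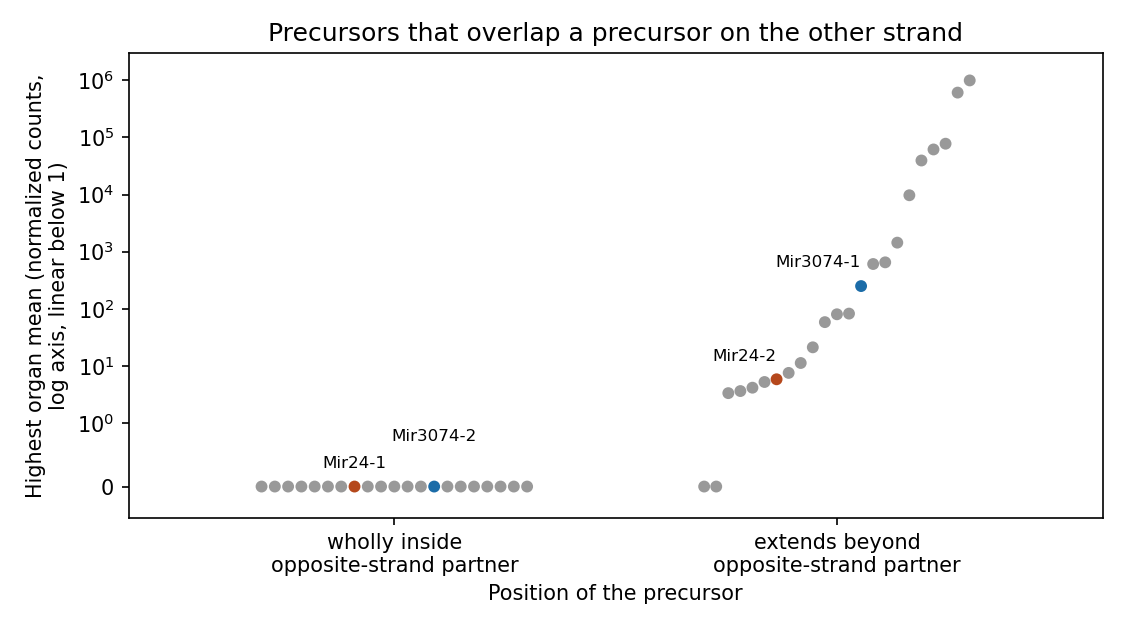
Highest organ mean of each of the 44 precursors that overlap a precursor on the other strand (normalized counts, log axis that is linear below 1), ordered by value within each class, with miR-24 in orange and miR-3074 in blue. All 21 that lie inside their partner are at 0, and Mir24-2 is at 5.84 among those that extend beyond.

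No member passed the threshold between the genotypes. Of 25 contrasts of the members with a statistic, 20 of them of the 4 abundant members, 0 had an adjusted p below 0.05 in the authors' deposited table (DESeq2), and 0 had an unadjusted p below 0.05. The smallest unadjusted p was 0.130 and the smallest adjusted p was 0.867, by DESeq2 in the authors' deposited table, which gives no adjusted p for Mir24-2 in heart. Over all features with an adjusted p, the share called was 1.13% of 355 in heart and 0.229% of 872 in liver, and 0% of 1030 in brain, of 1022 in kidney and of 1208 in spleen. Over all features with an unadjusted p, which in heart are 1107, the share below 0.05 was 5.33% in heart, 4.5% in kidney, 3.9% in liver, 3.48% in spleen and 2.23% in brain. The median log2 fold change of the 4 abundant members was 0.05 in kidney, 0.03 in brain and heart, -0.02 in spleen and -0.07 in liver. That of all features with a mean of at least 10 was between -0.03 and 0.007.

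Both miR-27 members differed more between the sides in kidney than in the other 4 organs, and their spread was also the widest there. Mir27a averaged 54443 normalized counts on the positive and 36078 on the negative side, and the authors' deposited table gave it a log2 fold change of 0.59 (SE 0.39, 95% interval -0.18 to 1.36, 3 mice per genotype). For Mir27b the means were 339836 and 278268, with a log2 fold change of 0.29 (SE 0.35) in the authors' deposited table. The miR-23 members lay the other way, Mir23a at 97363 and 111406 and Mir23b at 121641 and 149031, with log2 fold changes of -0.19 (SE 0.31) and -0.29 (SE 0.33) in the authors' deposited table. The coefficient of variation between libraries, as the standard errors imply it, was 26.0 to 33.3% in kidney. None of the 4 intervals excludes equal levels, and they reach from a log2 change of -0.94 to one of 1.36. In kidney, 3 of 4 vascular markers with a statistic had a positive log2 fold change, and 0 were called. Only 3 of these 4 had a mean of at least 10, and the marker below it, Mir145b, was among the positive ones. The other positive ones were Mir126a with 0.68 (SE 0.41) and Mir143 with 0.63 (SE 0.45) in the authors' deposited table. Mir145a, another abundant marker of the list, lay the other way with -0.16 (SE 0.29) in the authors' deposited table. Their part in the values of Mir27a was not tested.

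In liver Mir23b had the largest difference of the 4 abundant members, and it was not called. Mir23b averaged 46574 normalized counts on the positive and 61025 on the negative side, a log2 fold change of -0.39 (SE 0.37, 95% interval -1.11 to 0.33) in the authors' deposited table. Mir23a averaged 44069 and 47966, Mir27a 21408 and 17670, and Mir27b 134171 and 135971. The intervals of these 3 reached from -0.76 to 0.91 on the log2 scale. Depth differed between the sides of liver without overlap, as given above, and its part in these values was not tested.

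Heart, brain and spleen were measured more tightly. In heart, Mir23a averaged 142753 on the positive and 152828 on the negative side, Mir23b 86106 and 95789, Mir27a 43353 and 38610, and Mir27b 153910 and 138184. All 4 heart intervals lay between -0.56 and 0.64 on the log2 scale. In brain, Mir23b averaged 73825 and 74456 and Mir27b 123937 and 124452, with log2 fold changes of -0.01 each in the authors' deposited table (SE 0.23 and 0.24). Mir23a averaged 55735 and 53527 there, and Mir27a 10354 and 8869. In spleen, Mir23a averaged 74603 and 74012, Mir27a 31533 and 30717, Mir23b 33061 and 34446, and Mir27b 83367 and 89097. Intervals lay between -0.48 and 0.73 in brain and between -0.51 and 0.46 in spleen. A change of 2-fold thus lies outside the intervals of the abundant members in these 3 organs. It lies inside those of Mir27a in kidney and Mir23b in liver.

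**Figure D5:**
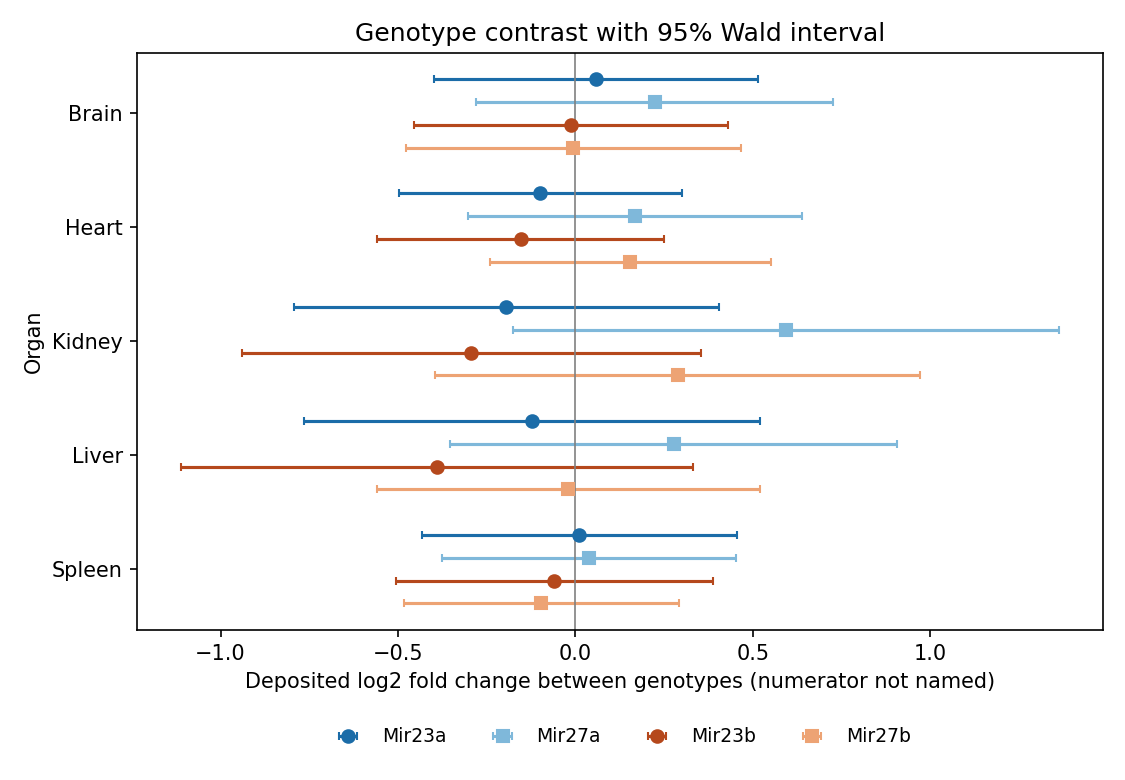
Log2 fold change between the genotypes from the authors' deposited tables, with 95% Wald intervals from the deposited standard errors, for Mir23a, Mir27a, Mir23b and Mir27b in 5 organs (3 mice per genotype). All 20 intervals include 0, and those of kidney and liver are the widest.

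For Mir24-2 the authors' deposited table gave log2 fold changes with standard errors of 1.49 to 4.05, which leaves its direction undetermined at 2 to 26 reads per organ. Mir3074-1 had a log2 fold change of -1.09 in liver (SE 0.53, 95% interval -2.13 to -0.04) in the authors' deposited table, with 88.2 normalized counts on the positive and 187 on the negative side. Its p was 0.0414 and its adjusted p was 0.991 (DESeq2), in the authors' deposited table, so it did not pass the threshold. In the other organs its log2 fold change lay between -0.48 and -0.13 in the authors' deposited table.

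Contrasts of the members did not differ detectably between organs. Over the 10 pairs of organs, 50 differences of a member's log2 fold change were tested by the z of the difference, adjusted over all features of the pair, and 0 passed an adjusted p of 0.05 or an unadjusted p of 0.05. Over all features, the share called was 0% in 9 pairs and 0.134% of 747 in kidney against liver. The smallest unadjusted p was 0.212, for Mir27a in kidney (log2 fold change 0.59) against spleen (0.04) as the authors' deposited tables give them, a difference of 0.56 (SE 0.45, 95% interval -0.32 to 1.43).

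The 2 clusters were then compared with each other within an organ. Over 5 organs, 10 differences between paralogues were tested in the same way and adjusted over the 10, and 0 passed an adjusted or an unadjusted p of 0.05, with a smallest p of 0.485 and a smallest adjusted p of 0.943. The log2 fold change of Mir23a minus that of Mir23b was 0.27 in liver (SE 0.49), 0.10 in kidney (SE 0.45), 0.07 in brain (SE 0.33), 0.07 in spleen (SE 0.32) and 0.06 in heart (SE 0.29). For Mir27a minus Mir27b the difference was 0.30 (SE 0.42), 0.31 (SE 0.52), 0.23 (SE 0.35), 0.13 (SE 0.29) and 0.01 (SE 0.31) in the same order. All 10 differences were above 0, and all were smaller than their standard errors. They come from the same mice, so their signs are not independent. No miR-24 pair could be tested, since Mir24-1 has no statistic.

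Within a cluster, the miR-27 member was compared with the miR-23 member, a comparison added after seeing the data. The difference in log2 fold change was positive in 9 of 10 cases, and 0 of the 10 intervals lay above 0. In kidney it was 0.79 in the 23a cluster (SE 0.50) and 0.58 in the 23b cluster (SE 0.48), in liver 0.40 and 0.37, and in heart 0.27 and 0.31. In brain it was 0.16 and 0.006, and in spleen 0.03 and -0.04. Heart, kidney and liver are the organs with a WT library of the second batch. In these 3 the log2 fold change was negative for miR-23 in 6 of 6 cases and positive for miR-27 in 5 of 6. These signs come from the same mice, and paralogues may share reads, so they are not independent. A value within the first batch could not be had from tables without values per library, so the batch and the genotype cannot be told apart in these signs.

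Other families with paralogous copies were set beside the members by their counts, from lists chosen with earlier results known. All members had a statistic in all organs and 0 were called in any. The miR-29 family, known for targeting collagen messages, had 4 of 4 positive in brain, heart and kidney, 0 of 4 in liver and 2 of 4 in spleen. The miR-181 family had 5 of 6 positive in brain and liver, 6 of 6 in heart and kidney, and 1 of 6 in spleen, with a median log2 fold change of 0.41 in kidney. The pair of Mir221 and Mir222 had 1 of 2 positive in brain, 0 of 2 in heart, kidney and liver, and 2 of 2 in spleen. In spleen the log2 fold change of Mir221 was 0.0002 (SE 0.21) in the authors' deposited table, so its sign carries no direction. The 4 abundant members had 2 of 4 positive in brain, heart, kidney and spleen and 1 of 4 in liver. Copies within a family come from the same mice and may share reads, so these signs are not independent. The share of positive signs over all features was not worked out.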

How the data were processed

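RNA of pulverised whole organs was made into libraries with the NEXTflex small RNA-Seq kit v3, per the labels' protocols. The submitters' processing notes name featureCounts (Subread 2.0.3), GRCm39 and DESeq2. Not given in the sources used here are the aligner, the annotation, the strand setting and the treatment of reads with several matches. The deposited mean is a signal, counts divided by size factors and averaged over an organ's libraries, per the file headers. Per the file headers, fold changes and standard errors are log2 values. The Wald statistic, a score, carries the authors' p-value and adjusted p-value. An entry without a name (1 in each organ, at most 1.82e-05% of the total) was not used. There were 0 further columns of values per sample.

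The 6 size factors of an organ and the whole reads of low features were recovered from low means, which are sums of whole reads over those factors (tolerance 1e-11 for means and 3e-14, relative, for whole reads). A refit of 438 low features with genotype alone gave the deposited fold changes within 5.6e-05 on the log2 scale, so no batch or family term was in the authors' model. Side means follow from the mean and the fold change, and the standard error of an organ's log2 level was taken as that of the fold change divided by 2. Intervals are 95% Wald intervals (1.96 standard errors). Calls use the deposited adjusted p at 0.05. The design foresaw tables without counts, and the deposited test was then the main one. Named features were all members, the miR-3074 precursors, and the 3 nearest profiles per member. Members and lists were chosen with earlier results of these data known. Sequences and positions are from RefSeq, GRCm38.p6, and the annotation from GENCODE M21. Work was done in Python 3.11.15 with numpy 2.4.6, pandas 2.3.3, scipy 1.17.1 and matplotlib 3.10.9. The recovery and the side means were tested on simulated data. For the side means these had a single mean and a single spread between libraries, narrower than that of the members in kidney and liver. Precision is limited by 3 mice per genotype and by read number for Mir24-2.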

Additional observations from a re-analysis of the deposited data

How the results depend on the processing

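Of 69 alternatives, 46 were counted as giving the same result, although the values of some of these changed. For example, the share of the 23a cluster in kidney was 0.871% without the most abundant feature and 0.687% with it. The counts of steps between neighbouring organs, given below, were also in this group. The 20 alternatives of the genotype contrasts (adjustment redone over all features, over those with a mean of 10 or more or over microRNA symbols alone, and fold changes centred on the organ median) called 0 members, with a smallest adjusted p of 0.856. The 5 alternatives of the differences called 0, with a smallest adjusted p of 0.579. Shares moved with the total. Without the 10 most abundant features, the 23a cluster held 5.15% in heart, 2.86% in spleen, 2.03% in kidney, 1.43% in liver and 0.738% in brain, and the 23b cluster 6.46%, 3.25%, 6.02%, 4.13% and 2.28%. Without the most abundant feature, the 23a cluster held 2.74% in heart, 0.469% in liver and 1.32% in spleen, and the 23b cluster 3.44%, 1.35% and 1.497%. Of the 5 organs, those that kept their place in the order without the 10 most abundant features numbered 3 for Mir23a, 3 for Mir23b and 0 for Mir27b. By percentile rank they numbered 3 for Mir23a, 3 for Mir23b and 2 for Mir27b, and all 5 organs kept their place for Mir27a under both. With a correlation of 0.5 between features, chosen after seeing the data, 1 of the 10 differences within a cluster had an interval above 0, that of the 23a cluster in kidney. Of 16 steps of level between neighbouring organs, 12 exceeded their errors with organs independent, 12 with a correlation of 0.5 between organs and 10 with one of -0.5, which lost Mir27a from spleen to kidney and Mir23b from kidney to brain. Of 8 steps of ratio the counts were 4, 5 and 3. These correlations were added after seeing the data. Leaving out each replicate or the library of the second batch was not run, since the tables hold no values per library. No paired analysis was possible because the tables hold no values per library of the abundant members, although each set of brothers held both genotypes.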
